A study of Mus musculus with 36 samples.

Results

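Bone marrow-derived macrophages (BMDMs) lacking N4bp1 were compared after 7 h and after 3 h of R837, a synthetic agonist of Toll-like receptor 7 (TLR7), by RNA-seq of polyadenylated transcripts. The comparison rests on 6 of the 36 libraries of the study, 3 per time point, chosen by genotype (N4bp1 KO) and treatment (R837 without actinomycin D). The other libraries were wild-type (WT) or received actinomycin D (ActD), which blocks transcription. Of these, WT at 3 h and 7 h of R837 (3 libraries each) and KO given R837 for 3 h and then ActD for 4 h (3 libraries) were set beside the KO values. The groups share the same culture: marrow from femurs and tibiae grown in M-CSF, with C57BL/6N named as the strain for wild-type mice and no strain stated separately for the KO. The labels describe 3 individual mice as the replicates, do not say which libraries share a mouse, give neither the R837 or ActD dose nor the deleted exons nor the age of the mice, and no untreated macrophages were analysed here. Every change below is therefore a change between 2 times of stimulation, and not a response from rest.

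TLR7 sits in endosomes, binds single-stranded RNA and small imidazoquinolines such as R837, and signals through the adaptor MyD88 and the IRAK kinases to the IKK complex, which frees NF-kB to enter the nucleus. N4BP1 is known as a suppressor of NF-kB-dependent cytokine production that is cleaved by caspase-8. Macrophages answer a TLR ligand in waves: immediate early genes and feedback inhibitors come first, and secondary cytokines, acute-phase proteins and metabolic enzymes follow, partly through cytokines that the cells secrete themselves. In such time courses a transcript level follows both its synthesis and its decay. Bulk libraries cannot tell fewer cells of a type from less RNA per cell.

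The targeted gene was measured first. N4bp1 (ENSMUSG00000031652, GRCm38 chromosome 8, 86808160 to 86885258, minus strand) was at 86, 85 and 81.3 CPM in the KO libraries at 3 h and at 145, 141 and 143 CPM at 7 h. CPM, the unit of every level below, are counts per M library counts (M, 10 to the power 6) after TMM normalization. Values of 3 libraries stand in the order of replicates 1 to 3. The labels give no replicate numbers, so these follow the order of the deposited libraries and link no libraries across groups. Means are given ± SD (n = 3), and log2 changes ± SE from edgeR. All 3 KO libraries at 7 h were above the 3 at 3 h (1.7-fold higher, log2 0.77 ± 0.076). In WT the gene went from 134 to 174 CPM (log2 0.39). Every KO library was below every WT library of the same time, and reads were still present in KO. Since the labels do not name the deleted exons, the count over the whole gene does not test the deletion.

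The 6 KO libraries held 23.3 to 31.9 M gene counts, against 20.3 to 46.1 M over all 36. The biological coefficient of variation over the 36 libraries was 7.48%. The 3 h libraries differed more among themselves than the 7 h libraries: the chi-square per degree of freedom of pairs was 7.22 to 19.54 at 3 h and 3.14 to 3.53 at 7 h. Replicates 1 and 3 at 3 h were farthest apart, and their differences followed gene width (Spearman correlation 0.56 across 8774 genes, which are not independent replicates). The change from 3 h to 7 h itself had a correlation of -0.08 with width, and the difference between the KO and WT changes one of -0.23. A fit with the length trend removed kept 8065 of the 8304 calls. Replicate 1 at 3 h also held more of the granule protease transcripts Ctsg (23.7 against 5.06 and 3.21 CPM) and Elane (17.4 against 4.69 and 4.98 CPM). Without that library the Ctsg change was a log2 of -0.41 and did not pass (edgeR adjusted p = 0.597, against 0.00781 with it).

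The identity of the cells was checked against marker genes. Of 16 macrophage markers tested, 6 rose, 7 fell and 3 did not pass, and their summed level was 33830 to 37960 CPM at 3 h and 35060 to 35370 CPM at 7 h. Lyz2, encoding lysozyme, was at 13780 ± 2009 CPM at 3 h and 14080 ± 323 CPM at 7 h and did not pass. Cd68, encoding a lysosomal membrane glycoprotein, fell (2100 ± 168 to 1369 ± 26.7 CPM, log2 -0.62 ± 0.075). Markers of other cells were far lower: summed levels were 23.6 to 25.9 CPM at 3 h and 19.8 to 22.2 CPM at 7 h for T and NK cells. They were 182 to 196 and 138 to 142 CPM for B and plasma cells, 22.3 to 24.1 and 36.4 to 38 for mast cells and basophils, and 72.4 to 77.8 and 67.8 to 75.8 for fibroblasts. Higher sums were those of dendritic cell markers (829 to 915 CPM at 3 h and 847 to 908 CPM at 7 h) and osteoclast markers (477 to 489.5 and 422 to 427 CPM). The sums are not corrected for gene length, so lists are compared only roughly. In the T cell list Cd3d, Cd3e and Cd3g were too low to test, no member was at 0 in all 6 libraries, and Mcpt4 of mast cells was. Of 15 neutrophil markers 9 fell, mostly granule genes, and 4 rose. Mpo went from 13.4 ± 0.952 to 3.14 ± 0.671 CPM and Ltf from 30.4 ± 0.368 to 8.72 ± 0.638 CPM. S100a8 (197 ± 31.9 to 549.8 ± 13.4 CPM) and Csf3r (30.2 ± 2.44 to 121 ± 2.42 CPM), which macrophages also express, were among those that rose. The neutrophil list summed to 696 to 798 CPM at 3 h and 1015 to 1060 CPM at 7 h, with no member at 0, and its part in the results below was not tested.

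In KO macrophages 3946 genes were higher (28.7%) and 4358 lower (31.7%) at 7 h than at 3 h, out of 13748 tested (edgeR quasi-likelihood test, Benjamini-Hochberg adjusted p under 0.05 over all genes tested). Changes of at least 2-fold were less even, with 1013 genes higher (7.37%) and 1836 lower (13.4%). Either way, 20.7% of genes changed by at least 2-fold. In 8973 genes (65.3%) the libraries of the 2 times did not overlap, with 7 h above in 31.6% and below in 33.7%. The median change over all genes was a log2 of -0.027. Scaling by library size alone moved that median by -0.148 and the split of calls from 47.5% higher to 34.7% higher (2885 higher, 5423 lower), and changes below are relative to the TMM scale. Because 60.4% of all genes passed, the count of a gene group is read against these shares and not against 0.

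The 15 largest rises included secreted factors such as Il19, Csf3 and Saa3 and the glycogen genes Gys1 and Ppp1r3b. Il19, which encodes a cytokine of the interleukin 10 family, was at 1.85, 1.61 and 1.69 CPM at 3 h and 205, 231 and 226 CPM at 7 h. Csf3, the gene of G-CSF, which drives granulocyte production, was at 5.16, 3.55 and 5.23 CPM at 3 h and 327, 328 and 361 CPM at 7 h. Saa3, an acute-phase serum amyloid gene, went from 1464, 1694 and 1931 to 24420, 25960 and 25100 CPM and became the gene with most counts in each 7 h library. The 2 times did not overlap for any of the 3 genes, and the folds were 128, 72.7 and 14.8. Serpinb2, encoding plasminogen activator inhibitor 2, rose from 27.7 ± 4.06 to 651 ± 52.7 CPM (log2 4.56 ± 0.14). Vnn3, of the vanin family of pantetheinases, rose from 1.77 ± 0.358 to 38.1 ± 1.99 CPM and Plpp1, a phospholipid phosphatase gene, from 2.24 ± 0.236 to 36.7 ± 2.42 CPM. Gys1, encoding muscle-type glycogen synthase, rose from 11.9 ± 2.99 to 154 ± 5.63 CPM, and Ppp1r3b, encoding a subunit that targets protein phosphatase 1 to glycogen, from 4.54 ± 1.23 to 66.5 ± 1.68 CPM. Mmp3 (stromelysin 1), Pde5a (a cGMP phosphodiesterase), Acat3 (an acetyl-CoA acetyltransferase), Egln3 (a prolyl hydroxylase acting on HIF) and Il1f6 (interleukin 36 alpha) also stood among the 15 largest (of genes with a mean of at least 5 CPM and libraries apart), at log2 changes of 4.79, 3.96, 3.85, 3.68 and 5.14. Draxin, a secreted axon guidance gene, and Tmc3, of the transmembrane channel-like family, rose from almost no counts. Draxin had 2, 3 and 1 counts at 3 h and 384, 396 and 391 at 7 h, a ratio of 216.2 after scaling (95% exact binomial interval 99 to 590.4, counting error only). Tmc3 had 4, 7 and 3 counts at 3 h and 385, 379 and 429 at 7 h.

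The 15 largest falls included those of Plau, Ccnd1 and Tnfsf4. Plau, which encodes the urokinase plasminogen activator, was at 227, 208 and 211 CPM at 3 h and 5.25, 5.63 and 5.19 CPM at 7 h (40.2-fold lower, log2 -5.33 ± 0.10). Ccnd1, encoding cyclin D1, was at 99.2, 90.8 and 86.2 CPM and then 4.52, 3.95 and 3.88 CPM. Tnfsf4, encoding OX40 ligand, was at 19.3, 20.9 and 19.5 CPM and then 0.701, 0.504 and 0.479 CPM. No 7 h library reached the lowest 3 h library for these 3 genes. Eps8, an actin regulator, went from 32.8 ± 2.68 to 0.926 ± 0.181 CPM, and the sialyltransferase gene St6gal1 from 33.9 ± 3.04 to 1.55 ± 0.327 CPM. The costimulatory receptor gene Cd28 went from 11.8 ± 1.06 to 0.655 ± 0.133 CPM and the transporter gene Slco2b1 from 12.5 ± 1.4 to 0.66 ± 0.204 CPM. Arhgap18, encoding a GTPase-activating protein, fell from 98.3 ± 4.26 to 6.19 ± 0.234 CPM and Cish, a STAT5-induced inhibitor of cytokine signalling, from 43.1 ± 3.04 to 2.78 ± 0.428 CPM. Abcg3, Zdhhc14, Phldb1, Cdca7l, Rnf150 and Mab21l3 completed the 15, with log2 changes from -4.67 to -3.88.

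**Figure D1:**
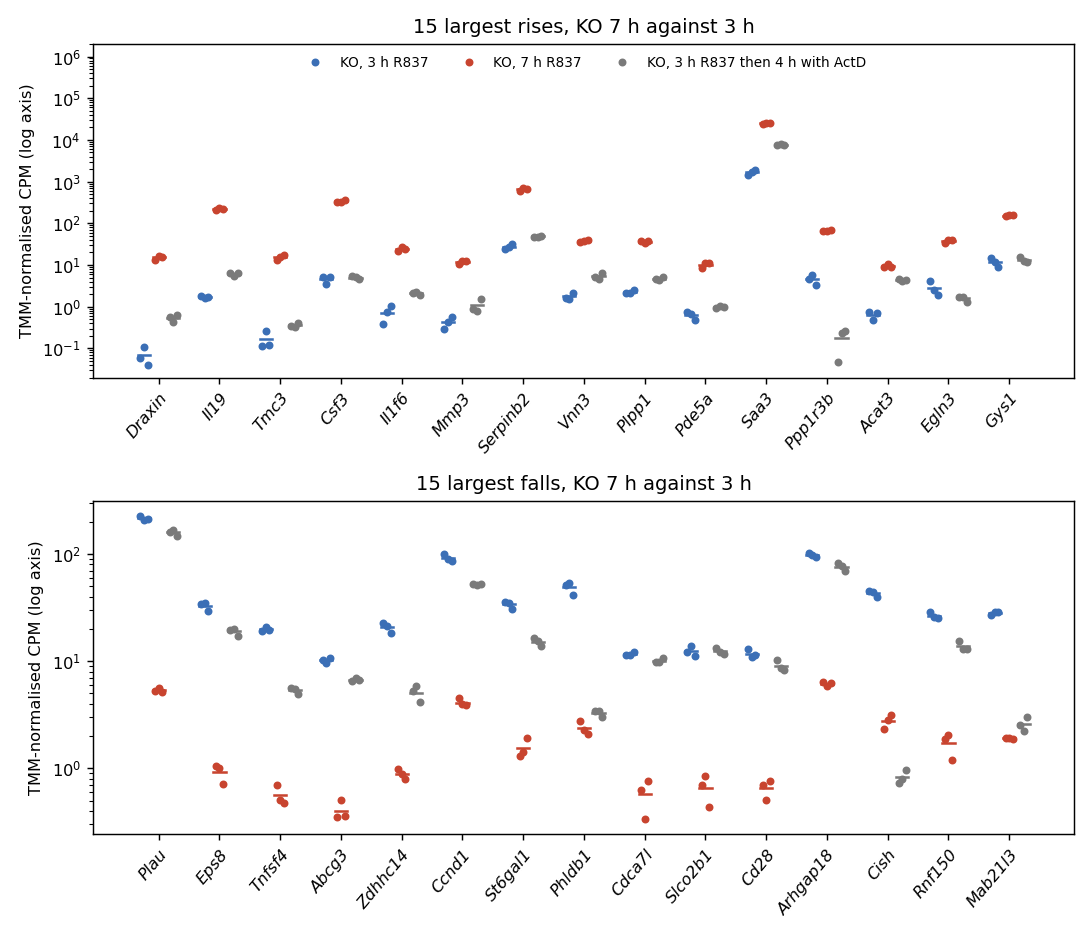
TMM-normalised CPM (log axis) of the 15 largest rises and the 15 largest falls in KO macrophages, by library (points) with group means (bars), at 3 h of R837, at 7 h of R837 and after 3 h of R837 followed by 4 h with ActD. The 3 libraries of a group lie close together, and the 7 h points (red) stand wholly above or below the 3 h points (blue) in each gene, as the choice of these genes required.

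Levels can be compared between genes only per length, here as CPM per kilobase of the deposited gene width (RPKM on the TMM scale). By this measure the greatest gain, among called genes with libraries apart, was of Fth1, encoding ferritin heavy chain, from 9276 to 20760 RPKM; this gene has near-identical copies in the genome, so its count is uncertain. Saa3 went from 651 to 9655 RPKM, Il1b from 1077 to 6496, Wfdc17, a small secreted WAP-domain gene, from 597 to 4588, and Ccl5 from 562 to 3310. Il1rn, Ccl9, Tmsb4x, Clec4e and Prdx5 followed, with gains from 1503 RPKM for Prdx5 to 2328 RPKM for Il1rn. The greatest losses per length were of Lgals3, encoding galectin 3 (3666 to 1953 RPKM), Ccl4 (5564 to 4391), Gpx1, encoding glutathione peroxidase 1 (1861 to 699), and the cathepsin genes Ctsb (4950 to 3906) and Ctsd (4459 to 3418). Also among the 10 largest losses were Icam1, Psap, the complement gene C1qa, Cxcl10 and Ifi27l2a. The fall of Ifi27l2a (log2 -0.31 ± 0.11, edgeR adjusted p = 0.0124) was lost without replicate 3 at 3 h or without replicate 2 at 7 h (adjusted p up to 0.175).

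Neutrophil-attracting CXC chemokines of the ELR class, the ligands of CXCR2, rose in KO. Of 5 tested, Cxcl1, Cxcl2 and Cxcl3 were higher and the weakly expressed Cxcl5 and Ppbp did not pass. Cxcl2 was at 754, 747 and 892 CPM at 3 h and 1637, 1615 and 1633 CPM at 7 h. Cxcl1 was at 687, 653 and 828 CPM at 3 h and 1093, 1055 and 1062 CPM at 7 h, with the libraries of the 2 times apart in both genes. Cxcl3 went from 87.5 ± 7.83 to 159.8 ± 4.98 CPM (1.82-fold higher, log2 0.87 ± 0.089). In WT the same 3 genes fell (log2 -0.60 for Cxcl2, -0.87 for Cxcl1 and -0.72 for Cxcl3), and the differences between the genotypes' changes passed (1.63 ± 0.13, 1.44 ± 0.15 and 1.59 ± 0.13). The CXCR3 ligands, which attract activated T cells, split: Cxcl9 rose from 13.3 ± 1.65 to 48 ± 2.34 CPM, while Cxcl10 fell from 1499 ± 34 to 227 ± 10.8 CPM and Cxcl11 from 18.3 ± 2.74 to 2.87 ± 0.203 CPM.

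The promoters of Cxcl1, Cxcl2, Cxcl3 and Cxcl10 and of the cytokines Il6 and Il19 are shown because members with the same kind of NF-kB match moved in opposite directions. Sequences are RefSeq promoter windows of GRCm38.p6, upstream of the annotated start, written 5′ to 3′ on the gene's strand. Capitals mark matches to the NF-kB consensus on either strand (overlapping matches merged) and, in Il19 and Cxcl10, the interferon element (GAAA, any 2 bases, GAAA).
Cxcl1 (chr5:90891135-90891214, plus strand): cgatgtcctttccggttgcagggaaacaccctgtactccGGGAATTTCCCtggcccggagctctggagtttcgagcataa
Cxcl2 (chr5:90903769-90903848, plus strand): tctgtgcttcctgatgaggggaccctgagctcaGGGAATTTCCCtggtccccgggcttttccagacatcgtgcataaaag
Cxcl3 (chr5:90785991-90786070, plus strand): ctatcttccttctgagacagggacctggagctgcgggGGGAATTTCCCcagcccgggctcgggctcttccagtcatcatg
Il6 (chr5:30013024-30013103, plus strand): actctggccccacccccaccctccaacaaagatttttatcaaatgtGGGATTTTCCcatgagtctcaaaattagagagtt
Il19 (chr1:130940156-130940235, minus strand): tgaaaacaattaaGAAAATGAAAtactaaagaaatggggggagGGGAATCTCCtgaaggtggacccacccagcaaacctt
Cxcl10 (chr5:92348980-92349109, minus strand): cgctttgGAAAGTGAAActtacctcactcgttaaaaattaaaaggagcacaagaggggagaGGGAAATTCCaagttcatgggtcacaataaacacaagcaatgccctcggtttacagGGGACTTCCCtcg
The 3 ELR chemokine genes lie in one cluster on chromosome 5 and carry the same 11 bases in capitals. Of 27025 genes with a RefSeq promoter of 300 bases (250 before to 50 after the start), 5.14% held an NF-kB match, and of the 9639 of them that were tested here 6.32% did. Among genes at least 2-fold higher at 7 h the share was 7.34% (53 of 722), and among those at least 2-fold lower 7.76% (104 of 1341). A match is a description of letters and does not show binding.

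Agonists and the receptor antagonist of the interleukin 1 family rose together. Of 10 members tested 7 were higher, 1 lower and 2 did not pass, with a median log2 of 1.21, and 6 of the 7 rose at least 2-fold. Il1b, encoding interleukin 1 beta, was at 1301, 1484 and 1596 CPM at 3 h and 8684, 8927 and 8816 CPM at 7 h. Il1a, encoding interleukin 1 alpha, was at 156, 158 and 163 CPM and then 728, 741 and 687 CPM. Il1rn, encoding the receptor antagonist, was at 1901, 1916 and 1941 CPM and then 8064, 8182 and 8409 CPM. In all 3 genes every 7 h library was above every 3 h library. The antagonist changed by nearly the same amount in both genotypes (log2 2.10 in KO and 2.09 in WT, difference 0.005 ± 0.10), whereas Il1b (2.59 and 0.90, 1.69 ± 0.12) and Il1a (2.18 and 0.31, 1.87 ± 0.17) rose more in KO. Il18 (18.8 ± 1.78 to 42.6 ± 1.58 CPM), Il1f9, encoding interleukin 36 gamma (24.8 ± 2.07 to 58.1 ± 2.2 CPM), and the co-receptor gene Il1rap (21.7 ± 1.06 to 42 ± 2.85 CPM) rose as well, with Il1f6. The fall was of Il18bp, the interleukin 18 binding protein (log2 -0.21 ± 0.071), a call that ended without the filter on low counts and without replicate 2 at 7 h (edgeR adjusted p up to 0.0838). The decoy receptor gene Il1r2 was at 1.29 ± 0.284 CPM at 3 h and 1.08 ± 0.111 CPM at 7 h and did not pass.

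Among interleukin 6 relatives and colony-stimulating factors 4 of 7 rose and 2 fell. Il6, the archetypal late inflammatory cytokine, was at 81.5, 97.1 and 112 CPM at 3 h and 361, 362 and 370.5 CPM at 7 h, without overlap (3.77-fold higher, log2 1.91 ± 0.11). In WT it fell (log2 -0.40), and the genotype difference was 2.31 ± 0.16. Lif (1.22 ± 0.419 to 3.8 ± 0.151 CPM) and Osm, encoding oncostatin M (3.35 ± 0.151 to 9.57 ± 0.43 CPM), rose from low levels. Csf1, encoding the M-CSF on which these cells grow, fell from 68.3, 61.6 and 57.5 CPM to 5.29, 6.01 and 5.31 CPM, with a log2 change of -3.50 in KO and -3.53 in WT (difference 0.028 ± 0.18, not passed). Clcf1 fell (12.5 ± 0.80 to 3.85 ± 0.678 CPM), and Csf2, encoding GM-CSF, was at 0.64 ± 0.20 CPM at 3 h and 0.518 ± 0.251 CPM at 7 h and did not pass.

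The interleukin 12 family divided by subunit. Il12b, the p40 subunit shared by interleukins 12 and 23, was at 266, 323 and 337 CPM at 3 h and 787, 828 and 846 CPM at 7 h (2.66-fold higher, log2 1.41 ± 0.14). Ebi3, a subunit of interleukin 27, rose from 191 ± 8.41 to 396 ± 7.05 CPM, while its partner Il27 fell from 231 ± 15.8 to 172 ± 9.1 CPM. Il23a, the p19 subunit of interleukin 23, fell from 9.14 ± 0.852 to 0.971 ± 0.0931 CPM. Il12a, the p35 subunit, was low (0.669 ± 0.296 to 1.21 ± 0.269 CPM), and its call (edgeR adjusted p = 0.0265) was lost in 5 of the alternative settings, with adjusted p up to 0.16. Il10, the main anti-inflammatory cytokine of these cells, was at 236, 236 and 266 CPM at 3 h and 260.5, 242 and 234 CPM at 7 h, with overlapping libraries (log2 -0.003 ± 0.094, edgeR adjusted p = 0.981). In WT Il10 fell over the same interval (from 292 to 93.3 CPM, log2 -1.64), and the genotype difference was 1.64 ± 0.13.

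**Figure D2:**
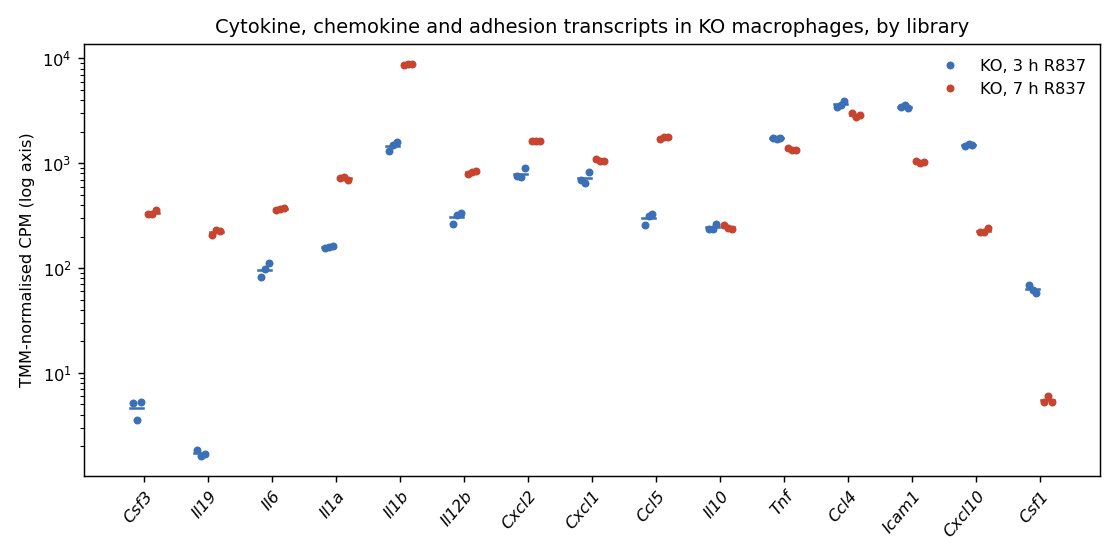
TMM-normalised CPM (log axis) of 15 cytokine, chemokine and adhesion genes in the 3 KO libraries at 3 h (blue) and the 3 at 7 h (red), with group means as bars. Csf3 and Il19 span the widest interval, the Il10 groups overlap, and Cxcl10 and Csf1 show the widest falls of the 15.

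CC chemokines, which recruit monocytes and lymphocytes, went both ways (4 of 13 higher, 6 lower, median log2 -0.34). Ccl5, encoding the T cell chemoattractant RANTES, was at 257, 313 and 328 CPM at 3 h and 1721, 1766 and 1796 CPM at 7 h. Ccl9 rose from 6885 ± 939 to 13670 ± 357 CPM. Ccl2, encoding the monocyte chemoattractant MCP-1, fell from 1037 ± 145 to 588 ± 17.7 CPM and its relative Ccl7 from 1354 ± 214 to 928 ± 21.9 CPM. Ccl22, a ligand of CCR4, fell from 41.1 ± 2.52 to 14.4 ± 0.898 CPM and Ccl4, encoding a macrophage inflammatory protein, from 3673 ± 239 to 2898 ± 106 CPM. Ccl3 was slightly higher (log2 0.35 ± 0.091), a call that ended with library size as the only scaling (edgeR adjusted p = 0.0558). The call of Ccl8, also among the 4 higher, ended with that scaling and without KO replicate 1 at 3 h (edgeR adjusted p up to 0.0646), which leaves Ccl5 and Ccl9. Ccl3 fell in WT (log2 -0.80).

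Ligands of the TNF superfamily mostly fell, with 11 of 15 lower, 2 higher and a median log2 of -1.68 (all genes, -0.027). Tnf itself was at 1746, 1700 and 1740 CPM at 3 h and 1395, 1324 and 1348 CPM at 7 h, with the times apart (log2 -0.35 ± 0.056). Tnfsf9, encoding 4-1BB ligand, fell from 279 ± 7.08 to 109 ± 3.98 CPM and Tnfsf10, encoding TRAIL, from 32.1 ± 3.03 to 8.85 ± 0.86 CPM. Tnfsf14, encoding LIGHT, fell from 5.33 ± 0.665 to 0.671 ± 0.0307 CPM and Tnfsf12, encoding TWEAK, from 21 ± 0.39 to 6.4 ± 0.761 CPM. The exceptions were Tnfsf15, encoding TL1A, which rose (11.7 ± 1.25 to 18.6 ± 1.87 CPM, log2 0.67) and fell in WT (-1.68), and Lta, encoding lymphotoxin alpha. Lta was at 0.771 ± 0.0956 CPM at 3 h and 1.3 ± 0.226 CPM at 7 h, and its call was lost in 5 settings (edgeR adjusted p up to 0.16). In WT the counts were similar (12 of 15 lower, 0 higher, median log2 -1.29).

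NF-kB subunits and their inhibitors and feedback regulators were lower at 7 h more often than higher. Of the 5 subunits 4 fell. Rel (c-Rel) went from 189.5, 178 and 169.8 CPM to 70.9, 74.2 and 65.5 CPM. Nfkb1 (p105/p50) fell from 498 ± 35.3 to 378 ± 9.38 CPM, Relb from 146 ± 6.32 to 111 ± 1.0 CPM and Rela from 149.7 ± 18.5 to 123 ± 6.27 CPM. The Rela call (edgeR adjusted p = 0.0175) ended without replicate 1 at 3 h, and without replicate 1 or 2 at 7 h (adjusted p up to 0.147). Nfkb2 was at 371 ± 30.6 CPM at 3 h and 332 ± 10.2 CPM at 7 h and did not pass. Inhibitors and feedback regulators gave 9 of 16 lower and 3 higher (all genes, 31.7% lower and 28.7% higher), with a median log2 of -0.17. The calls of Nfkbia, Nfkbid, Cyld and Tnip3 among these ended in at least 1 alternative setting. Nfkbie, encoding IkB epsilon, fell from 389, 405 and 379.8 to 236, 240.5 and 236 CPM, and Nfkbiz, the nuclear cofactor IkB zeta, from 1377 ± 49.3 to 746 ± 23.9 CPM. Bcl3 fell from 212 ± 17.4 to 113 ± 3.94 CPM and Birc2, encoding the ubiquitin ligase cIAP1, from 136 ± 9.5 to 52.9 ± 1.08 CPM. Tnfaip3, encoding the ubiquitin-editing enzyme A20, was at 1227, 1235 and 1148 CPM and then 1106, 1120 and 1106 CPM and did not pass (edgeR adjusted p = 0.0547), whereas it fell in WT (log2 -0.88, difference 0.77 ± 0.075). Tnip1, an A20-binding protein, rose (453 ± 28.4 to 684 ± 23.8 CPM). In 9 of the 16 genes the KO change lay above the WT change by a difference that passed, and in 0 below. The differences of Nfkbia, Nfkbib, Tnip3 and Zc3h12a did not pass with library size as the only scaling (edgeR adjusted p from 0.0588 to 0.173 at their highest over all settings). The promoters of 8 of the 14 list members with one (57.1%) held an NF-kB match.

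Toll-like receptors fell more often than they rose in KO. Of 9 Toll-like receptors tested 5 were lower, 2 higher and 2 did not pass, with a median log2 of -0.58. The shares over all genes were 31.7% lower and 28.7% higher. In WT 3 of the 9 were lower, 4 higher and 2 did not pass (median log2 -0.088). Tlr7 itself, the R837 receptor, was at 226, 206 and 209 CPM at 3 h and 214, 213 and 207 CPM at 7 h, with overlapping libraries (log2 -0.014 ± 0.095, edgeR adjusted p = 0.91). Tlr9, the endosomal DNA receptor, fell from 11.5, 9.89 and 8.48 CPM to 1.51, 1.43 and 1.48 CPM and Tlr13, the receptor for bacterial ribosomal RNA, from 187, 164 and 155 CPM to 47.9, 42.4 and 46.5 CPM. Tlr2, which binds bacterial lipopeptides, fell from 2435 ± 47.9 to 861 ± 38.2 CPM, Tlr3, which binds double-stranded RNA, from 49.3 ± 1.47 to 30.3 ± 1.1 CPM and Tlr4, the lipopolysaccharide receptor, from 103 ± 5.31 to 69.1 ± 3.63 CPM. The rises of Tlr1 (log2 0.25 ± 0.062) and Tlr8 (log2 0.36 ± 0.10) ended with library size as the only scaling (edgeR adjusted p = 0.157 and 0.0743). Tlr9 (-1.09) and Tlr13 (-0.55) fell less in WT (log2 changes), with differences of -1.67 ± 0.29 and -1.34 ± 0.15. Among adaptors and kinases Irak3, encoding the inhibitory IRAK-M, rose from 53.7, 57.1 and 47.6 CPM to 364, 385 and 374 CPM, with a log2 change of 2.82 in KO and 2.77 in WT. Irf5, a transcription factor activated by TLR7 and MyD88, fell from 288, 269.6 and 259 CPM to 53.6, 48.1 and 49.5 CPM, and its endosomal partner Slc15a4 from 67.5 ± 2.99 to 40.8 ± 0.555 CPM. Myd88 (343 ± 14.8 to 349 ± 9.94 CPM) and Irf7 (860.5 ± 19.8 to 884 ± 24.8 CPM) did not pass.

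Genes of the IKK family and the caspase-8 complex, the proteins named in the study's title, rose more often than they fell (9 of 18 higher, 4 lower, 5 not passed, median log2 0.12, which turned to -0.03 with library size as the only scaling). Ikbkg, encoding NEMO, went from 51.5 ± 2.14 to 104 ± 3.84 CPM and Ikbkb, encoding IKK beta, from 71.9 ± 2.17 to 119 ± 3.16 CPM. The IKK-related kinase genes followed, Ikbke from 129 ± 2.71 to 206 ± 5.9 CPM and Tbk1 from 119 ± 3.53 to 173 ± 1.67 CPM. Tbkbp1, a TBK1-binding protein gene, rose most (11.4 ± 0.869 to 43.7 ± 0.913 CPM). Casp8 rose (87.2 ± 4.26 to 119 ± 1.45 CPM, log2 0.45), as did Mlkl, the executor of necroptosis (36.9 ± 1.46 to 75.9 ± 1.94 CPM). Cflar, which encodes the caspase-8 regulator FLIP, fell (456 ± 23.6 to 346 ± 11.2 CPM). Ripk1 (87.9 ± 2.36 to 86 ± 1.54 CPM), Ripk3 (30.1 ± 2.24 to 30.6 ± 0.243 CPM) and Fadd (16.5 ± 1.07 to 14.4 ± 0.823 CPM) did not pass. The ubiquitin ligase genes Rnf31 (65.1 ± 3.57 to 34.6 ± 0.271 CPM) and Rbck1 (46.7 ± 4.24 to 32.6 ± 3.05 CPM), both of the linear ubiquitin complex, fell.

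Immediate early and feedback transcription genes did not move as a block. In the AP-1, ATF and Maf list 7 of 15 rose and 7 fell. Fosl2, encoding Fra-2, rose from 96.9, 93.4 and 80.6 CPM to 229, 242 and 235 CPM, and in WT its log2 change was 0.14 and did not pass (difference 1.25 ± 0.13). Junb fell from 766 ± 66.7 to 506 ± 2.45 CPM and Jund from 95.5 ± 8.6 to 41.5 ± 1.56 CPM, while Jun (36 ± 0.905 to 38.4 ± 1.83 CPM) did not pass. In the EGR, NR4A and KLF list 7 of 16 rose and 5 fell. Nr4a1, an orphan nuclear receptor gene, rose from 8.94, 8.54 and 6.91 CPM to 27.4, 30.7 and 26.9 CPM and its relative Nr4a3 fell from 7.61 ± 0.876 to 1.51 ± 0.65 CPM. Phosphatases that switch off MAP kinases also went both ways, 4 of 10 up and 4 down. Dusp6 (3.04 ± 0.872 to 21.1 ± 0.633 CPM) and Dusp16 (215 ± 11.4 to 381 ± 2.16 CPM) rose. Dusp1 (825 ± 16.6 to 514 ± 26.3 CPM) and Dusp14 (3.9 ± 0.86 to 0.801 ± 0.0039 CPM) fell. Of the SOCS genes, which restrain cytokine receptors, 5 of 8 fell and 1 rose. Socs3 was at 1726, 1745 and 1528 CPM and then 1556, 1507 and 1576 CPM and did not pass, and Socs1 fell (37.4 ± 3.35 to 23.2 ± 0.861 CPM, log2 -0.68) by less than in WT (-2.25, difference 1.57 ± 0.21).

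Interferon-stimulated genes went both ways. Of 33 tested 13 rose, 9 fell and 11 did not pass (WT, 18, 10 and 5), beside 28.7% of all genes higher and 31.7% lower in KO. The guanylate-binding protein genes Gbp2 (278 ± 25.2 to 1043 ± 7.87 CPM) and Gbp3 (102 ± 8.37 to 328 ± 6.5 CPM) rose. So did the exonuclease gene Isg20 (24.3 ± 1.89 to 72.8 ± 3.0 CPM), the nucleic acid sensor gene Zbp1 (164 ± 10.4 to 434 ± 5.84 CPM) and the ubiquitin-like modifier gene Isg15 (486 ± 58.3 to 1007 ± 26.4 CPM). Rsad2, encoding the antiviral enzyme viperin, fell from 783, 771 and 826 CPM to 193, 187 and 198 CPM. Cmpk2 (597 ± 44.8 to 175 ± 6.36 CPM), its genomic neighbour, and Ifit1 (717 ± 46.1 to 298 ± 6.39 CPM) and Ifit2 (577 ± 35.9 to 192 ± 7.57 CPM), which bind viral RNA, also fell, as did Ifit3 (289 ± 24.3 to 128 ± 4.36 CPM). The genotype difference passed in 7 of the 33, 2 positive and 5 negative (all genes, 5.45% positive and 6.84% negative). Of the negative ones, those of Ifi44, Ifit2 and Oas2 ended in at least 1 alternative setting (edgeR adjusted p up to 0.11). The interferon element was present in 17 of the 25 members with a promoter (68.0%), against 3.99% of all promoters and 4.11% of those of tested genes. Among interferon regulatory factors Irf1 fell from 477 ± 19.2 to 178 ± 11.2 CPM, Irf5 as given above and Irf4 from 4.17 ± 0.429 to 1.55 ± 0.328 CPM, and Irf3 rose (34.7 ± 2.2 to 47 ± 1.54 CPM).

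Enzymes that make nitric oxide and itaconate rose. In nitric oxide, arginine and itaconate metabolism 9 of 10 members rose and 1 fell (median log2 1.5, WT 1.4). Nos2, the inducible nitric oxide synthase, was at 270.3, 288 and 249 CPM at 3 h and 1874, 2039 and 2046 CPM at 7 h. The arginine transporter gene Slc7a2 was at 72, 70.9 and 64.7 CPM and then 497, 546 and 507 CPM, and Ass1, which regenerates arginine, at 9.38 ± 0.84 CPM at 3 h and 48.5 ± 1.33 CPM at 7 h. Each of these 3 rose more in KO than in WT (differences 1.34 ± 0.15, 1.04 ± 0.11 and 0.57 ± 0.14). Acod1, the itaconate-forming enzyme, rose from 1080 ± 20.4 to 3719 ± 37.2 CPM and the mitochondrial superoxide dismutase gene Sod2 from 727 ± 29 to 1919 ± 10.9 CPM, with no passing difference from WT. The arginase genes differed: Arg2 rose more in KO (1.52, WT 0.21) and Arg1 less (1.48, WT 2.38).

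In prostaglandin and leukotriene synthesis 10 of 16 genes were lower and 6 higher, while the summed level of the list went from a range of 2627 to 2757 CPM at 3 h to one of 7175 to 7435 CPM at 7 h. The rises included enzymes that lead to prostaglandin E2. Ptgs2, encoding cyclooxygenase 2, rose from 1505, 1346 and 1353 CPM to 4742, 4825 and 4505 CPM. The terminal synthase gene Ptges rose from 241 ± 3.3 to 1653 ± 35.3 CPM, and Pla2g4a, encoding the phospholipase that releases arachidonic acid, from 48.5 ± 1.85 to 399 ± 5.82 CPM. Leukotriene and thromboxane genes fell, among them Alox5ap (589 ± 46 to 280.1 ± 15.4 CPM), Lta4h (46.7 ± 4.42 to 24.3 ± 1.01 CPM) and the thromboxane synthase gene Tbxas1 (135 ± 2.55 to 49.9 ± 3.92 CPM). Ptger4, which encodes the prostaglandin E2 receptor EP4, fell from 49, 46.4 and 47.1 CPM to 6.83, 6.05 and 5.83 CPM, further than in WT (-0.95, difference -1.97 ± 0.17).

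Acute-phase, complement and antimicrobial secreted proteins rose in 14 of 20 and fell in 2 (median log2 0.95). Beside Saa3, haptoglobin (Hp) went from 116, 129 and 132 CPM to 1385, 1480 and 1473 CPM and the iron-sequestering lipocalin Lcn2 from 118, 129.9 and 115 CPM to 1079, 1133 and 1117 CPM. Factor B (Cfb) rose from 7.33 ± 0.215 to 37.8 ± 2.39 CPM and the antiprotease Slpi from 10.5 ± 1.52 to 37.8 ± 3.27 CPM. The C1q chains C1qa (3181 ± 199 to 2258 ± 88.4 CPM) and C1qc (2502 ± 78.1 to 1818 ± 47.8 CPM) fell slightly. Saa3 changed by log2 3.89 in KO and 4.04 in WT (difference -0.14 ± 0.25, not passed), whereas Hp (0.97 ± 0.14) and Lcn2 (0.82 ± 0.094) rose more in KO. Saa1 and Saa2 are near-identical copies, so their low counts are uncertain. Matrix proteases and their inhibitors rose in 12 of 18 and fell in 3. Mmp13, a collagenase gene, rose from 524 ± 31.8 to 3882 ± 217 CPM, and Mmp9, a gelatinase gene, from 50.0 ± 3.48 to 137 ± 3.69 CPM. The membrane-bound protease gene Mmp14 rose from 265 ± 13.9 to 712 ± 6.44 CPM and the inhibitor gene Timp1 from 23.9 ± 2.81 to 118 ± 3.6 CPM. The falls were those of Plau, the sheddase gene Adam8 (1559 ± 111 to 787 ± 16.5 CPM) and the inhibitor gene Timp2 (593 ± 14.8 to 311 ± 4.66 CPM).

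Glycolysis and targets of the hypoxia-inducible factor HIF-1 rose almost throughout, with 27 of 28 members higher, 1 lower and a median log2 of 1.25. Slc16a3, the lactate exporter, was at 178, 190.4 and 177 CPM at 3 h and 1021, 1005 and 1049 CPM at 7 h. Slc2a1, the glucose transporter GLUT1, was at 195, 197 and 188 CPM and then 975, 972 and 979.5 CPM. Pfkl, a phosphofructokinase gene, was at 63.9, 61.3 and 60.7 CPM and then 312, 318 and 325 CPM. Hif1a itself rose from 346 ± 19.5 to 925 ± 48.4 CPM and Ldha, encoding lactate dehydrogenase A, from 563 ± 4.93 to 1448 ± 48.2 CPM. The hexokinase genes Hk1 and Hk2 rose from 57 ± 6.57 to 174 ± 8.79 CPM and from 75.2 ± 7.45 to 182 ± 12.9 CPM, and Bnip3, a mitophagy receptor gene, from 4.89 ± 1.63 to 42.4 ± 4.57 CPM. The 1 exception was the carbonic anhydrase gene Car9 (11.3 ± 0.54 to 4.31 ± 0.354 CPM). WT gave the same counts (27 higher, 1 lower, median log2 0.91). The genotype difference passed in 9 of 28, 6 positive and 3 negative (all genes, 12.3% either way). Vegfa (1.04 ± 0.13) and Hif1a (0.56 ± 0.093) were above WT and Ndrg1 (-0.90 ± 0.12) below. The differences of Car9, Pfkl, Pdk1 and Pgk1 ended in at least 1 alternative setting (edgeR adjusted p up to 0.154). Pgk1 and Pgam1 have close copies in the genome, so their counts are uncertain. The hypoxia core ACGTG or GCGTG was found in 24 of 26 promoters of the list (92.3%), against 67.1% of the promoters of tested genes.

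Cholesterol and fatty acid synthesis rose in 19 of 29 and fell in 4 (median log2 0.64). The lanosterol synthase gene Lss rose from 9.99, 10.8 and 9.01 CPM to 31.8, 31.7 and 30.6 CPM. The squalene epoxidase gene Sqle rose from 34.6 ± 1.78 to 81.5 ± 4.08 CPM and the demethylase gene Cyp51 from 95.1 ± 4.77 to 194 ± 12.3 CPM. The synthase gene Hmgcs1, at the entry of the pathway, was at 129 ± 5.79 CPM at 3 h and 125 ± 8.18 CPM at 7 h and did not pass. Dhcr7, the last step to cholesterol, fell (14.4 ± 2.12 to 6.64 ± 0.47 CPM). In WT the counts were 23 higher and 3 lower (median log2 0.81), with 4 passing differences, each with the KO change lower. Of these, the differences of Dhcr7, Tm7sf2 and Scd2 ended in at least 1 alternative setting (edgeR adjusted p up to 0.178), and that of Sqle was kept in all. A CCAAT box stood in 19 of the 20 promoters of the list (95%), against 42.9% of the promoters of tested genes, and the box was also in 23 of 31 (74.2%) promoters of cell cycle genes. The sterol element (TCAC, any base, CCAC, on either strand) stood in 1 of the 20 (5%, tested genes 1.33%). Among targets of the antioxidant factor NRF2 12 of 16 rose and 1 fell. Hmox1, encoding heme oxygenase 1, rose from 232, 210.3 and 212 CPM to 1224, 1187 and 1364 CPM. The glutathione reductase gene Gsr rose from 57.9 ± 6.83 to 369 ± 5.98 CPM and Gclm, for glutathione synthesis, from 39.6 ± 2.63 to 90.2 ± 4.23 CPM. The fall was of the autophagy receptor gene Sqstm1 (2537 ± 54.7 to 1141 ± 47.2 CPM). Of 36 nuclear-encoded genes of the respiratory chain 10 were higher and 4 lower, 0 of them by 2-fold, for example Atp5b (log2 0.31 ± 0.05) of the ATP synthase and Ndufb5 (log2 -0.28 ± 0.08) of complex I.

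Most proliferation genes fell. Of 37 cell cycle and replication genes 27 were lower, 4 higher and 6 did not pass (median log2 -0.85). Of the replication helicase genes, Mcm6 went from 91, 82.8 and 77 CPM to 18.2, 18.4 and 17.4 CPM, Mcm5 from 67.4 ± 1.39 to 18 ± 1.54 CPM and Mcm2 from 21.4 ± 2.18 to 4.14 ± 0.567 CPM. The nucleotide supply genes Rrm1 (70.0 ± 3.73 to 27.2 ± 1.28 CPM) and Rrm2 (14.5 ± 0.625 to 3.79 ± 0.144 CPM) fell. The cyclin genes Ccnd1 and Ccnd2 (99.1 ± 3.27 to 31.1 ± 2.21 CPM) fell, while Ccnd3 rose (6.1 ± 0.329 to 23.8 ± 1.04 CPM). Of the mitotic genes Top2a (53.5 ± 4.26 to 25.4 ± 1.47 CPM) and Cdk1 (33.5 ± 2.38 to 23.1 ± 1.0 CPM) fell, and Ccnb1 (1.91 ± 0.462 to 1.72 ± 0.415 CPM) and Cdc20 (4.45 ± 0.865 to 3.91 ± 0.446 CPM) did not pass. Of the cyclin-dependent kinase inhibitors Cdkn1b (p27) rose from 25.6 ± 3.62 to 75.2 ± 8.67 CPM and Cdkn1a (p21) and Cdkn2c (p18) fell from 1873 ± 34.7 to 781 ± 18.5 CPM and from 6.04 ± 0.253 to 1.89 ± 0.159 CPM. WT gave 31 lower and 3 higher (median log2 -0.90).

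Among Fc gamma receptors and their chains 5 of 6 rose. The inhibitory receptor gene Fcgr2b went from 296, 324 and 311 CPM to 1841, 1860 and 1843 CPM. The activating receptor genes Fcgr4 and Fcgr1 rose from 273 ± 22.9 to 666 ± 15.4 CPM and from 655 ± 36.9 to 1004 ± 34.7 CPM. MHC class I presentation rose in 10 of 14 and fell in 0. The proteasome activator gene Psme2 rose from 64.5 ± 6.38 to 183 ± 3.68 CPM, the peptide transporter gene Tap2 from 89.4 ± 2.41 to 192 ± 5.03 CPM and the class I transactivator gene Nlrc5 from 21 ± 2.97 to 46.5 ± 3.61 CPM. B2m, encoding the class I light chain, did not pass (4857 ± 142 to 5028 ± 21.9 CPM). MHC class II presentation fell in 8 of 13 and rose in 1, the exception being March1, a ubiquitin ligase that removes class II from the surface (103 ± 3.39 to 589 ± 31.8 CPM). H2-Aa fell from 150.4 ± 5.05 to 115 ± 4.87 CPM and H2-DMa, a peptide-loading chaperone gene, from 23 ± 1.68 to 10.1 ± 0.437 CPM. Scavenger and efferocytosis receptors fell in 9 of 12 and rose in 2. Gas6, the bridging ligand for dying cells, fell from 272 ± 17.9 to 67.6 ± 2.88 CPM and the oxidised LDL receptor gene Olr1 from 59.3 ± 2.19 to 7.48 ± 0.665 CPM. The scavenger receptor genes Marco (2.04 ± 0.132 to 20.2 ± 0.974 CPM) and Msr1 (733 ± 34.8 to 2050 ± 53.2 CPM) rose, and Cd36 fell (3027 ± 247 to 1963 ± 6.23 CPM). Of 25 lysosomal genes 14 were lower and 4 higher. Ctsl, encoding cathepsin L, fell from 6429 ± 322 to 4119 ± 146 CPM and the proton pump gene Atp6v0d2 from 143 ± 4.4 to 37.5 ± 1.43 CPM, while Ctsc rose from 1147 ± 12.9 to 2844 ± 10.7 CPM. Of 16 costimulatory and adhesion molecules 8 fell and 4 rose. Cd83, a marker of dendritic cell maturation, fell from 818 ± 80.8 to 148 ± 4.62 CPM and Havcr2, encoding TIM-3, from 24 ± 0.749 to 3.33 ± 0.211 CPM. The integrin ligand genes Icam1 and Vcam1 fell from 3463 ± 105 to 1038 ± 22.2 CPM and from 291 ± 13.1 to 96.8 ± 3.83 CPM. Slamf1, a self-ligand receptor gene, rose from 10.8 ± 0.781 to 77.4 ± 3.47 CPM and Cd274, encoding PD-L1, from 559.6 ± 16 to 1086 ± 31.6 CPM. Receptors of the TREM and C-type lectin families rose in 8 of 15 and fell in 4. Trem1 rose from 10.1, 8.65 and 11.2 CPM to 101, 104 and 106 CPM, and Clec4e, encoding the receptor Mincle, from 2456 ± 296 to 6759 ± 212 CPM. Trem2, a lipid-sensing receptor gene, fell from 1320 ± 93.8 to 825 ± 16.8 CPM and the lectin gene Clec10a from 22.4 ± 1.26 to 3.26 ± 0.273 CPM.

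**Figure D3:**
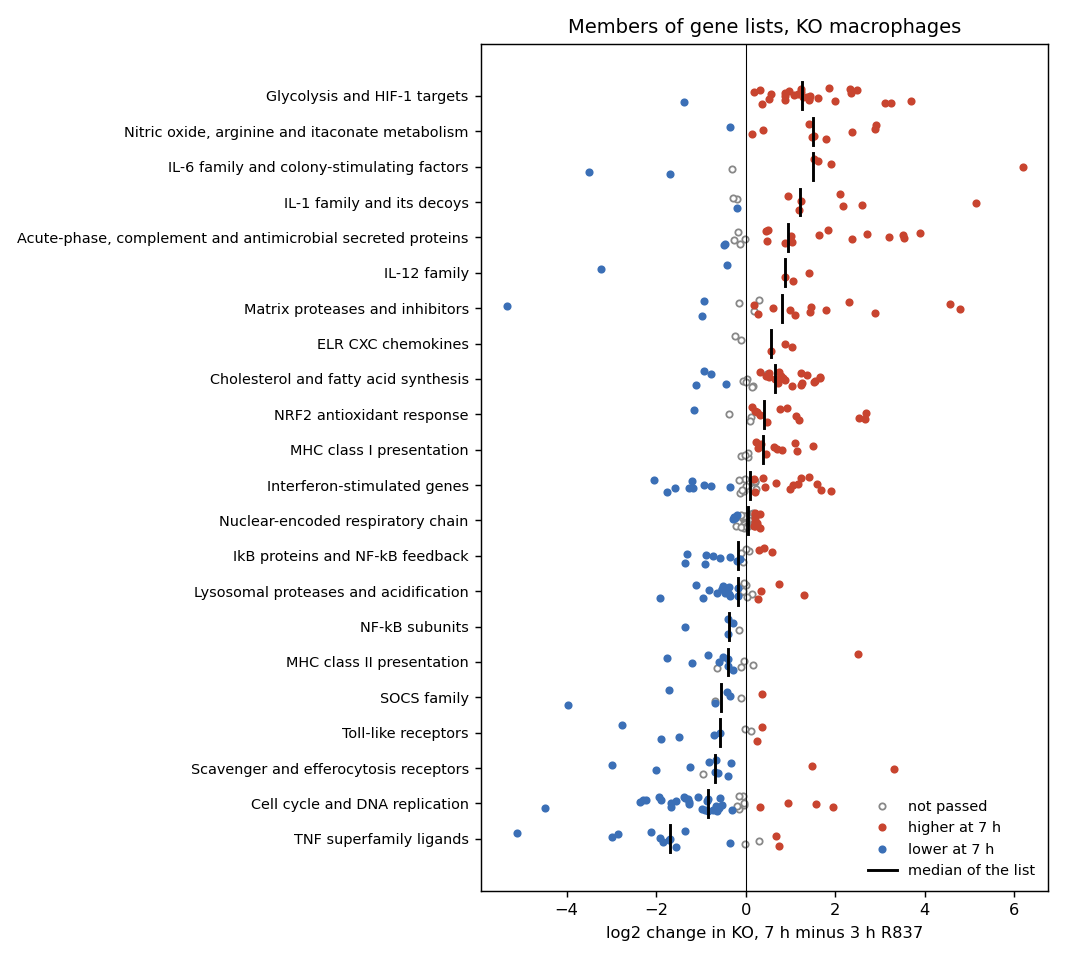
The log2 change from 3 h to 7 h in KO of each tested member of 22 gene lists (one point per gene, red higher, blue lower, open not passed), with the list's median as a black bar. 27 of 28 glycolysis and HIF-1 genes lie above 0 and TNF superfamily ligands and cell cycle genes mostly below, while interferon-stimulated genes spread to both sides.

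Transcripts known as targets of Regnase-1, an endonuclease that cuts stem-loops in inflammatory mRNAs, rose in 11 of 17 and fell in 5 in KO, and in WT 4 rose and 9 fell. The genotype difference passed for 12 of the 17, with the KO change above the WT change in 12 and below in 0 (over all genes 5.45% of differences were positive calls and 6.84% negative). The list overlaps the cytokine lists above and was drawn up with earlier results of these data known, so it is no separate evidence. Zc3h12a, which encodes Regnase-1, was itself at 198, 199.8 and 180.1 CPM at 3 h and 255, 256 and 253 CPM at 7 h (log2 0.40 ± 0.08). Targets that fell in KO were Nfkbiz, Rel, Icosl (95.6 ± 2.73 to 35 ± 1.81 CPM), the transferrin receptor gene Tfrc (539 ± 23.5 to 343 ± 2.16 CPM) and Nfkbid (14.1 ± 1.26 to 11.2 ± 1.33 CPM). Of 17 regulators of mRNA decay 6 rose and 6 fell. Zfp36, encoding the AU-rich element binding protein tristetraprolin, fell from 1168 ± 96.5 to 577 ± 8.89 CPM, and the deadenylation cofactor gene Btg2 rose from 58.7 ± 3.26 to 120.3 ± 4.53 CPM.

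The 3 h to 7 h change was then set beside that of WT, in which 7974 genes (58.0%) passed. Of the 3946 genes higher in KO, 2967 were also higher in WT, 906 did not pass there and 73 were lower. Of the 4358 lower in KO, 3399 were lower in WT, 887 did not pass and 72 were higher. A test of the difference between the 2 changes passed for 1690 genes (12.3%), with the KO change above the WT change in 749 (5.45%) and below in 941 (6.84%), and by at least 2-fold in 134 (0.975%) and 176 (1.28%), 2.25% in all. With library size as the only scaling the split was 539 above and 1296 below. With the length trend removed 1909 genes passed (800 above and 1109 below), and with 1 library left out 1289 to 1954 passed.

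The largest positive differences among genes called in KO included a coagulation trigger, an amplifying receptor and cytokines. F3, encoding tissue factor, was at 2.58, 2.86 and 3.62 CPM at 3 h and 26.6, 29.3 and 28 CPM at 7 h in KO, and at 3.62, 4.48 and 4.09 and then 3.98, 3.46 and 3.92 CPM in WT (difference 3.33 ± 0.25). Trem1, encoding a receptor that amplifies TLR signals, was at 11, 10.5 and 9.95 and then 12.5, 13.4 and 14.7 CPM in WT, against 9.96 and then 104 CPM on average in KO (difference 3.02 ± 0.15). Ddit4, an inhibitor of mTORC1, rose in KO (30.5 ± 1.15 to 82.3 ± 4.43 CPM) and fell in WT (20.4 to 10.2 CPM, difference 2.44 ± 0.16). The deubiquitinase gene Stambpl1 (2.49 ± 0.16), D16Ertd472e (2.50 ± 0.15), Tnfsf15 (2.35 ± 0.22), Nr4a1 (2.30 ± 0.21) and the secreted pentraxin gene Ptx3 (2.21 ± 0.29) completed the 12 with Draxin, Il6, Csf3 and Il1a.

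By the same conditions, the largest negative differences were of genes that fell in KO and, in WT, fell less, did not pass or rose. Rab3il1, a guanine nucleotide exchange factor gene for Rab3A, was at 57.6, 59.5 and 53.3 CPM at 3 h and 16.2, 14.5 and 14.5 CPM at 7 h in KO and at 64.9, 65.2 and 61.9 and then 105, 93.4 and 92.9 CPM in WT (difference -2.51 ± 0.12). Hip1, an endocytic adaptor gene, fell in KO (29.9 ± 5.17 to 4.87 ± 0.336 CPM), and in WT was at 28.3 and then 25 CPM. Irf5 went from 232 to 144 CPM in WT, so that it fell in both genotypes and further in KO (difference -1.75 ± 0.11). Rasgef1b (-2.14 ± 0.13), Ptger4, Mtss1 (-1.97 ± 0.14), Cdk20 (-1.95 ± 0.11), the adaptor gene Nck2 (-1.81 ± 0.21), Zdhhc14 (-1.70 ± 0.28), Tlr9, the potassium channel gene Kcnk13 (-1.63 ± 0.14) and the endosomal GTPase gene Rab7b (-1.63 ± 0.10) completed the 12.

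**Figure D4:**
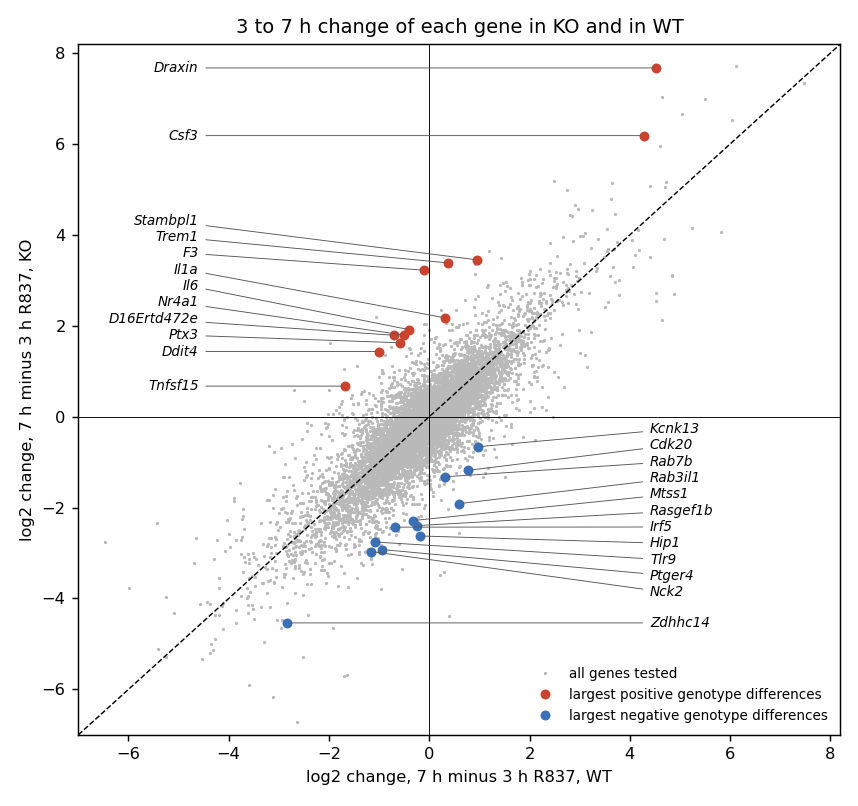
The log2 change from 3 h to 7 h of R837 of each gene tested in WT (x axis) and KO (y axis), with the dashed line marking equal change. The 12 largest positive (red) and 12 largest negative (blue) genotype differences are named. They were taken among genes called in KO with a mean of at least 5 CPM and libraries apart. F3, Trem1 and Il6 lie above the line while Rab3il1 and Hip1 lie below it.

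**Figure D5:**
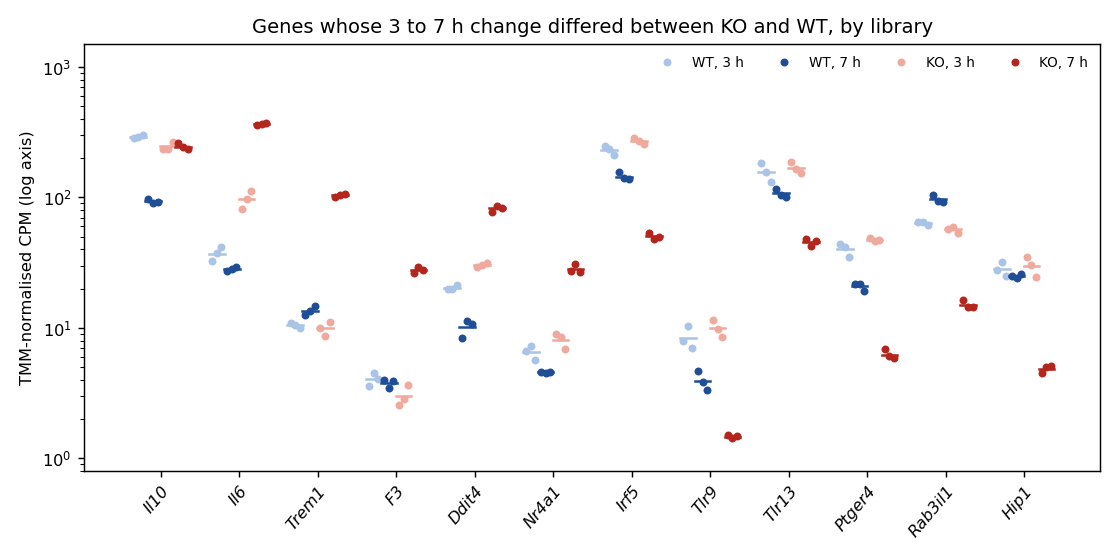
TMM-normalised CPM (log axis) by library in WT and KO at 3 h and 7 h for 12 genes whose change differed between genotypes, with group means as bars. For Il10 the KO libraries of both times overlap while WT falls, and for Irf5, Tlr9, Tlr13 and Ptger4 the KO libraries at 7 h are the lowest of the 4 groups.

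The KO group with ActD also stood at 7 h from stimulation, with transcription running for the first 3 h of R837 and blocked for the last 4 h. This group and the 7 h group are compared with the same 3 h libraries, so their values are given side by side and no overlap is drawn. CPM is relative to the RNA in each library, so a level with ActD is no amount per cell. Of all genes 68.0% passed between ActD and 3 h, and 74.1% between 7 h and ActD. Among the 15 largest rises, Ppp1r3b was at 4.54 CPM at 3 h, 66.5 CPM at 7 h and 0.181 CPM with ActD, and Egln3 at 2.85, 37.8 and 1.61 CPM. Saa3 was at 7656 CPM with ActD and Il19 at 6.14 CPM, both between their 3 h and 7 h levels. Among the 15 largest falls, 14 had a higher mean with ActD than at 7 h. These genes were chosen for low levels in the same 7 h libraries, which by itself favours a higher mean with ActD. The count is therefore a description and not a test. Plau was at 215 CPM at 3 h, 5.36 CPM at 7 h and 159.5 CPM with ActD, and Slco2b1 at 12.5, 0.66 and 12.4 CPM. The exception was Cish, at 0.83 CPM with ActD against 2.78 CPM at 7 h. Among cytokines Tnf was at 44.3 CPM with ActD against 1356 CPM at 7 h, Il6 at 50.7 against 365 CPM, Il1b at 1971 against 8809 CPM and Cxcl10 at 1686 against 227 CPM. Icam1, which encodes an adhesion molecule, was at 3463 CPM at 3 h, 3636 CPM with ActD and 1038 CPM at 7 h. Cxcl10 and Icam1 were thus lower at 7 h than with transcription blocked (log2 of 7 h against ActD -2.89 ± 0.079 and -1.81 ± 0.058), whereas Tnf was higher (4.93 ± 0.067). Socs3 was at 1666, 9.62 and 1546 CPM at 3 h, with ActD and at 7 h.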

How the data were processed

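The authors deposited exonic read counts per gene, with a gene width, for each of 36 libraries, 3 in each of 12 groups set by genotype, R837 and ActD. Reads were single-end, 50 bases long, from a TruSeq v2 kit, per the labels' protocols, and GSNAP and GRCm38 are named in the submitters' processing notes. The counting program, annotation and strand setting are not given in the sources used here. Antisense, overlapping and near-identical genes (Gbp, Ifit, Saa, Fth1, Pgk1) are therefore uncertain. Gene symbols came from GENCODE M21 (52489 of 52636 IDs), and unnamed IDs held at most 0.00219% of counts.

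Counts were filtered (filterByExpr), TMM-normalised and fitted with edgeR 4.0.16 in R 4.3.3 (quasi-likelihood, a mean per group, all 36 libraries sharing one spread), with Benjamini-Hochberg adjustment over 13748 genes at 0.05. The scripts were tested on simulated data. DESeq2 1.42.0, other scalings, filters and left-out libraries were the alternatives. Named genes were N4bp1, 9 cytokines, the 15 largest rises and falls, the 10 largest gains and losses per length and the 12 largest genotype differences each way (libraries apart, mean of at least 5 CPM, predicted genes and clones left out), and up to 4 called members per list with members needed for balance. Genes of 55 lists that the text gives beyond these were chosen after their values were seen. The members and lists were chosen with earlier results of these data known. Motifs were searched on both strands of RefSeq promoters (GRCm38.p6).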

Additional observations from a re-analysis of the deposited data

Results flagged for a closer look

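The 56 genes below were picked out of the named genes for 1 reason. Their log2 change from 3 h to 7 h in KO differed from that in WT by at least 1. The adjusted p for the difference itself was under 0.05 (edgeR, an interaction contrast). Of all genes, 2.25% met both conditions. Values are the KO change minus the WT change. The KO change was higher by 2 or more in F3 (3.33), Draxin (3.14), Trem1 (3.02), D16Ertd472e (2.50), Stambpl1 (2.49), Ddit4 (2.44), Tnfsf15 (2.36), Il6 (2.31), Nr4a1 (2.30) and Ptx3 (2.21). It was higher by 1.5 to 2 in Csf3 (1.91), Il1a (1.87), Dusp14 (1.76), Slc7a11 (1.73), Il1b (1.69), Il10 (1.64), Vnn3 (1.64), Cxcl2 (1.63), Serpinb2 (1.6), Il12b (1.59), Cxcl3 (1.59), Il27 (1.59), Socs1 (1.57), Il1f6 (1.5) and Il19 (1.5), after rounding. Smaller positive differences were those of Cxcl1 (1.44), Gadd45a (1.43), Pdgfrb (1.43), Trem3 (1.42), Nos2 (1.34), Cish (1.30), Pde5a (1.29), Dusp6 (1.26), Fosl2 (1.25), Cd83 (1.24), Slamf1 (1.23), Cxcl10 (1.13), Dusp16 (1.07), Slc7a2 (1.04) and Ppp1r3b (1.01). The KO change was lower in Rab3il1 (-2.51), Hip1 (-2.45), Rasgef1b (-2.14), Ptger4 (-1.97), Mtss1 (-1.97) and Cdk20 (-1.95), and by less in Nck2 (-1.81), Irf5 (-1.75), Zdhhc14 (-1.70), Tlr9 (-1.67), Kcnk13 (-1.63), Rab7b (-1.63), Ccnd1 (-1.45), Tlr13 (-1.34), Abcg1 (-1.26) and Mab21l3 (-1.20). Among these, the Il1f6 difference did not pass without KO replicate 1 at 3 h, and the Pde5a difference did not pass without WT replicate 3 at 3 h. With 3 libraries a group, the groups were too small for an outlier test.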

How the results depend on the processing

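Of the 8304 calls in KO, 8110 remained with DESeq2, 7243 with library size as the only scaling and 7481 to 7683 with 1 KO library left out, and 0 were called in the opposite direction. With 1 library left out, 3644 to 3796 genes were higher and 3990 to 4238 lower in KO. A test against a 2-fold minimum gave 605 higher and 1100 lower, fewer by construction than the 1013 and 1836 past 2-fold in the fitted value. At an adjusted p of 0.01 the genotype difference passed in 1066 genes (469 higher and 597 lower), fewer by the stricter threshold. Library size as the only scaling shifted all changes in KO by a median of -0.148, and the fitted changes of Asl (0.14) and Txnrd1 (0.13), called in KO, were then -0.003 and -0.014 and did not pass. The median change of 16 of 55 lists took the other sign in at least 1 setting. Among named genes, 7 of 247 calls in KO and 20 of 115 genotype differences ended in at least 1 setting. Among list members and named genes together, 84 of 603 and 62 of 228 did. Most named genes were chosen by large changes or small p in the same fit, which favours calls that hold. The cause of the lost calls was not tested. The weakly expressed genes Il12a and Lta were among those whose call ended. No paired analysis was possible because the labels give no replicate numbers and do not say which libraries share a mouse.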

Other observations

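Inflammasome genes, whose products process interleukin 1 beta and open the gasdermin pore, rose in 8 of 15 and fell in 4 between 3 h and 7 h in KO (all genes, 28.7% higher and 31.7% lower). Casp1, encoding the interleukin 1-converting protease, rose from 176 ± 17.6 to 530.2 ± 10.7 CPM, the lipopolysaccharide-sensing caspase gene Casp4 from 226 ± 25.2 to 405 ± 7.21 CPM, the pore-forming gene Gsdmd from 123 ± 5.82 to 245 ± 9.09 CPM and the sensor gene Nlrp3 from 400.4 ± 22.9 to 576 ± 13.5 CPM. Nek7, the kinase that binds NLRP3, fell from 233 ± 14 to 98.3 ± 4.58 CPM, and the adaptor gene Pycard (203 ± 33.5 to 175 ± 6.53 CPM) did not pass. In the BCL-2 family 4 of 17 rose and 6 fell, and Bcl2l11, encoding the pro-apoptotic protein BIM, fell from 264 ± 20.5 to 28.5 ± 0.988 CPM (log2 -3.21 ± 0.087). Mcl1, the survival gene with the most counts of the family, was at 875 ± 50.1 CPM at 3 h and 897 ± 20.1 CPM at 7 h and did not pass. The Bcl2a1 genes are near-identical copies and their counts are uncertain.

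Genes around adenosine and cAMP moved in both directions (5 of 16 higher, 7 lower), as did all genes (28.7% higher, 31.7% lower). The calls of Pde4a, Pde4d and Prkar1a ended in at least 1 alternative setting. The adenosine receptor genes Adora2b (156 ± 2.94 to 258 ± 6.7 CPM) and Adora3 (7.74 ± 0.851 to 19.7 ± 0.916 CPM) rose, and Entpd1, encoding the ectoenzyme CD39, fell from 72.2 ± 4.85 to 17.2 ± 1.15 CPM. Among targets of the sterol receptor LXR the cholesterol exporters parted: Abca1 rose from 183 ± 32.5 to 301 ± 20.3 CPM and Abcg1 fell from 76.4 ± 3.06 to 12.8 ± 1.11 CPM, while Apoe (4063 ± 358 CPM at 3 h and 4253 ± 119.7 CPM at 7 h) did not pass. In the ATF4 and unfolded protein list 9 of 23 rose and 8 fell, and Slc7a11, encoding the cystine transporter, rose from 56.8 ± 4.53 to 426 ± 10.8 CPM (log2 2.91 ± 0.094). Among Sestrins and growth-stress regulators Foxo3 rose from 4.11 ± 0.498 to 20.2 ± 1.25 CPM and Sesn1 fell from 8.27 ± 0.94 to 3.32 ± 0.619 CPM. In ribosome biogenesis 5 of 27 rose and 7 fell, and in the SR splicing factor list 6 of 14 rose and 5 fell. Of 10 dendritic cell markers 3 rose, among them Ccr7 (18.4 ± 1.09 to 32.8 ± 0.342 CPM), and 5 fell. Of 9 osteoclast markers 2 rose and 6 fell, among them Dcstamp (6.15 ± 0.17 to 2.4 ± 0.718 CPM). The 10 mitochondrially encoded genes tested gave 0 calls by edgeR (2 at an unadjusted p under 0.05, log2 changes -0.29 to 0.07) and 0 by DESeq2, in libraries where such genes made up 0.0418% to 0.0686% of counts. Of 7 mast cell markers 1 rose and 1 fell, and of 11 fibroblast markers 4 rose and 2 fell. Of 10 B and plasma cell markers 8 fell, and the 1 erythroid marker tested fell, with Hba-a2, Klf1 and Alas2 at 0. Of 4 genes of the interleukin 10 family and its receptors 1 rose and 2 fell.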
